A study of Mus musculus with 2 samples.

Results

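The 31 genes described here, out of 31053 counted in each library, code for the epithelial basement membrane, for the hemidesmosome and for the integrin receptors that bind to them. They were taken by symbol from a fixed list, and all 31 were present in both libraries. By role they fell into 8 collagens, 6 laminin chains, 4 nidogens and heparan sulphate proteoglycans, 10 integrin chains, and 3 further genes for a pair of plakins (Dst, Plec) and a tetraspanin (Cd151). Their levels are given by library and by the basal state of the cells.

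The cells came from organoids of normal mouse urothelium, the epithelium lining the bladder, which were dissociated and profiled by droplet-based scRNA-Seq that reads the 3′ ends of transcripts. The mice were wild type (WT), of the C57BL/6 strain and 8 to 10 weeks old. Proliferative organoids (NMU-O-P, here P) were kept in complete medium, and differentiated organoids (NMU-O-D, here D) had been moved to a medium from which EGF, Noggin, RSPO1, WNT3A and LY2157299 (a compound that inhibits the TGF-β receptor) were left out. Both were grown inside Matrigel, a protein extract of basement membrane, so the cells of each group touched matrix that they had not made, and only RNA was counted here. Each group held 1 library, so the comparison of the organoids has no replicates behind it, and no p-value was computed.

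Kept cells had more than 800 detected genes and at most 12% of their UMIs (unique molecular identifiers, 1 for each captured RNA molecule) from mitochondrial genes. The libraries shared 10 barcodes, 6 of them among the kept cells. Filtering left 6818 of 8194 barcodes with 26681469 UMIs in P, and 4896 of 6975 with 20305621 in D. Over 12% mitochondrial UMIs were found in 5.81% of the P and 27.3% of the D barcodes. Levels are UMIs per 1000000 UMIs (counts per 1000000, CPM) summed over kept cells, which can be compared between genes without a correction for length since each molecule is counted once at its 3′ end. The uroplakin Upk3a, which marks the luminal cells of the urothelium, stood at 0.150 CPM in P and 339 CPM in D, whereas Krt20, another luminal marker, had 8 and 3 UMIs.

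Basement membranes are sheets of matrix in which networks of type IV collagen and of laminin are laid over each other and linked by nidogens and perlecan. Basal cells of stratified epithelia rest on this sheet and hold on to it in part through hemidesmosomes, where integrin α6β4, type XVII collagen and the plakins join the laminin outside to the keratin filaments inside. In the urothelium these contacts belong to the basal layer, whereas the luminal umbrella cells face the urine.

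The type IV collagen genes are arranged head to head on their chromosomes. Col4a1 (minus strand, chr8:11198423-11312826 in GRCm38) and Col4a2 (plus strand, chr8:11312805-11449287) share 22 bases at their starts, whereas the reads come from their opposite ends. Col4a6 (minus strand, chrX:141165403-141474076) and Col4a5 (plus strand) start 1309 bases apart in the GENCODE annotation. Since both genes of a pair lay on the same side of the comparison of P with D and the pairs on opposite sides, the 250 bases before the start of Col4a6, which lie between it and Col4a5, are given here next to those of Col7a1 (chr9:108953586-108984875), the gene with the highest ratio of D to P. Both stretches are from RefSeq on GRCm38.p6, read 5′ to 3′ on the strand of the gene, overlap no annotated exon, and have CCAAT (or ATTGG) and GGGCGG (or CCGCCC) in capitals.
Col4a6, chrX:141474077-141474326, minus strand: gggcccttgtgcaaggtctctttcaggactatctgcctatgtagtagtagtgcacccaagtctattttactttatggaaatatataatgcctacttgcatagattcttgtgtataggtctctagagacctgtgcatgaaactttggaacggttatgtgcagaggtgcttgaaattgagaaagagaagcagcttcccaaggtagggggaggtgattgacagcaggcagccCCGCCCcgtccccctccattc
Col7a1, chr9:108953336-108953585, plus strand: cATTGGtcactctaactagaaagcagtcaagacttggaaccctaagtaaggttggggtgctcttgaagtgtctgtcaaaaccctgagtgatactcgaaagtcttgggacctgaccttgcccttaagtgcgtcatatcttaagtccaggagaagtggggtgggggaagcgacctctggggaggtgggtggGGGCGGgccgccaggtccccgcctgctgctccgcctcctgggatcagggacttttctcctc
For 24 of the 31 genes, 31 upstream stretches of this length were on hand, as 7 genes had more than 1 annotated start. On either strand, the AP-1 element TGANTCA was in 0 of the 31 stretches, against 6.75% of all 32851, the CCAAT box in 11 of 31 (35.5%) against 33.8%, and the GC box GGGCGG in 18 of 31 (58.1%) against 32.7%. These are matches of letters in a short window, and a missing match says nothing on the factor.

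Of the 31 genes, 29 had at least 20 UMIs over both libraries. The genes took 0.140% of all UMIs in P (37377 UMIs) and 0.190% in D (38592 UMIs). In D, 10 of the 29 were at least 2-fold higher than in P, a call made for 13.4% of the 10719 genes with at least 100 UMIs. These were Col4a5, Col4a6, Col7a1, Lama3, Lamb2, Lamb3, Itga2, Itgb6, Plec and Cd151. In P, 4 were at least 2-fold higher, namely Col4a2, Col12a1, Lamb1 and Hspg2, against 4.73% of all genes. The median log2 ratio of D over P was 0.44 over the 29 genes and 0.42 over the 8939 genes that reached 100 UMIs in P and in D alike, which puts the median of the list near that of all genes. Taken relative to this general shift, 6 genes were at least 2-fold higher in D (background 5.62%) and 7 at least 2-fold higher in P (background 8.62%). Col4a5, Lama3, Plec and Cd151 fell below the line in the first count, and Col4a1, Itga3 and Itga5 joined the second. In sums over a library, a smaller share of cells with a transcript and fewer transcripts per cell cannot be told apart.

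**Figure D1:**
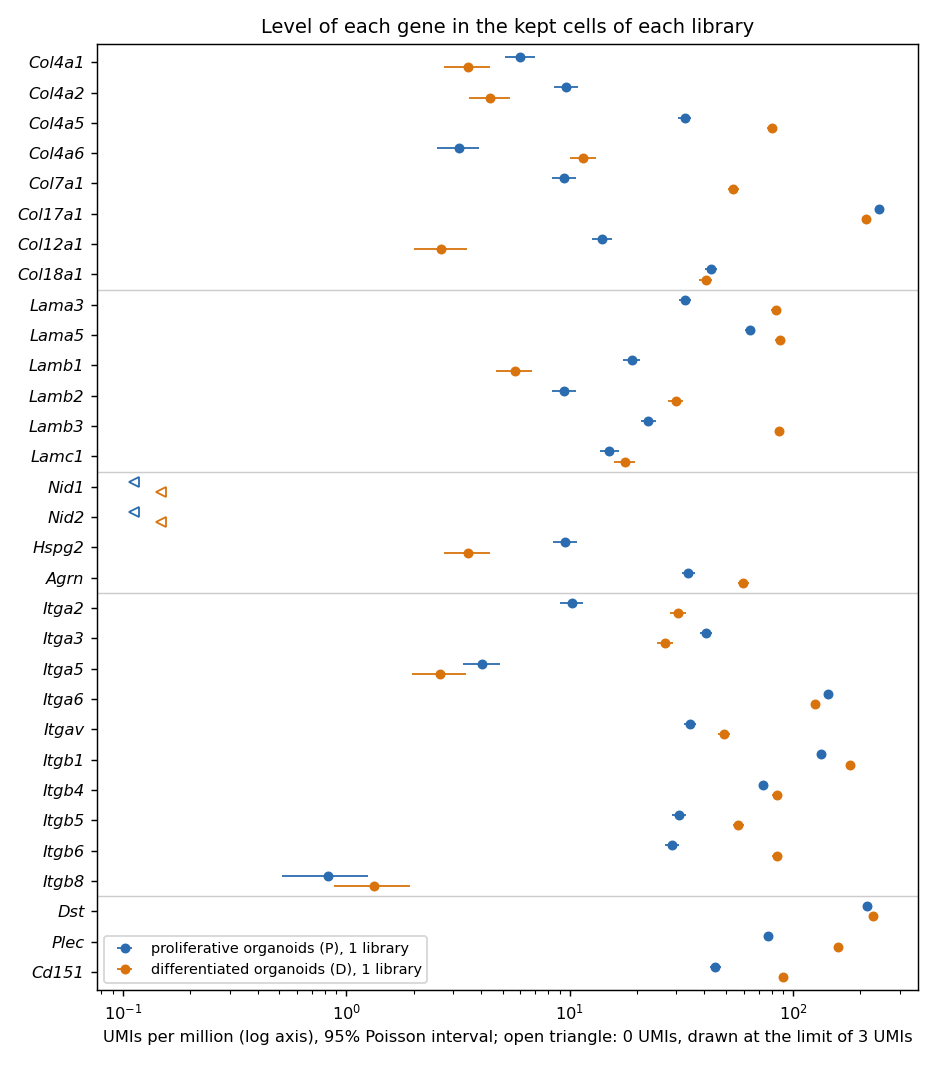
Level of each of the 31 genes in P (blue) and D (orange), 1 library each, in CPM on a log axis with 95% Poisson intervals. Col17a1 and Dst are among the highest in both libraries, at 242 and 213 CPM in P, and Nid1 and Nid2 had no UMI in either and are drawn at the limit that 3 UMIs give.

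Among the collagens of the membrane itself, the 2 head-to-head pairs of type IV collagen went separate ways. Col4a1 and Col4a2 code for the α1 and α2 chains, the form found in nearly all basement membranes. Col4a1 stood at 6.00 CPM in P (5.10 to 7.001, 95% interval, 160 UMIs) and at 3.50 CPM in D (2.73 to 4.41, 71 UMIs). Col4a2 stood at 9.63 CPM in P (8.49 to 10.9) and 4.38 CPM in D (3.52 to 5.39). Both were thus lower in D, with log2 ratios of -0.78 (-1.20 to -0.37) and -1.14 (-1.50 to -0.78). Col4a5 and Col4a6 code for the α5 and α6 chains, a form with a narrower tissue range that is known from skin, bladder and smooth muscle. Col4a5 rose from 32.7 CPM in P (30.6 to 35.0) to 80.1 CPM in D (76.2 to 84.1), a log2 ratio of 1.29 (1.17 to 1.41). Col4a6 rose from 3.19 CPM (2.54 to 3.94, 85 UMIs) to 11.5 CPM (10.0 to 13.0, 233 UMIs), a log2 ratio of 1.85 (1.48 to 2.22). Within each pair the intervals of the libraries did not overlap, and the α5 transcript was the most counted of these genes in both.

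Col7a1 codes for type VII collagen, which forms the anchoring fibrils below the membrane. It had 9.44 CPM in P (8.31 to 10.7, 252 UMIs) and 54.0 CPM in D (50.8 to 57.3, 1096 UMIs). At 5.71 times the P level and a log2 ratio of 2.51 (2.32 to 2.72), it was the gene of the list with the highest ratio of D to P. Col12a1, a fibril-associated collagen of the matrix next to the membrane, was at the other end. It fell from 13.9 CPM in P (12.6 to 15.4, 372 UMIs) to 2.66 CPM in D (1.998 to 3.47, 54 UMIs), 5.24 times lower. The remaining members of the class stayed within 2-fold. Col17a1, a collagen with a transmembrane segment that is part of the hemidesmosome, had 242 CPM in P and 211 in D, a log2 ratio of -0.19 (-0.25 to -0.14) or, relative to the general shift, -0.62. Col18a1, a collagen and heparan sulphate proteoglycan in 1 molecule, had 42.8 and 40.5 CPM, a log2 ratio of -0.08 whose interval (-0.21 to 0.051) took in 0.

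Among the laminins, Lama3 and Lamb3 were higher in D. They code for the α3 and β3 chains of the laminin that the hemidesmosome binds. Lama3 had 32.8 CPM in P (30.7 to 35.0) and 83.9 CPM in D (79.9 to 87.9), a log2 ratio of 1.35. Lamb3 had 22.5 CPM in P (20.7 to 24.4) and 86.7 CPM in D (82.7 to 90.8), a log2 ratio of 1.95 (1.81 to 2.08). Both chains were therefore higher in D, by 2.56 and 3.85 times.

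The β1 and β2 chains, which take the same place in other laminins, moved in opposite directions. Lamb1 fell from 19.0 CPM in P (17.3 to 20.7, 506 UMIs) to 5.66 CPM in D (4.68 to 6.80, 115 UMIs), a log2 ratio of -1.74 (-2.05 to -1.45). Lamb2 rose from 9.41 CPM (8.28 to 10.6) to 29.8 CPM (27.5 to 32.3), a log2 ratio of 1.66 (1.45 to 1.88). In P the β1 transcript was thus the more counted of both, and in D the β2 transcript was. Their usual partners, the α5 chain (Lama5) and the γ1 chain (Lamc1), stayed near the general shift. Lama5 had 63.9 and 87.0 CPM, and its log2 ratio of 0.44 became 0.022 relative to the shift. Lamc1 had 15.0 and 17.6 CPM, and its log2 ratio of 0.23 (0.016 to 0.44) turned to -0.20 relative to the shift.

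Of the linkers and proteoglycans, 2 were not seen at all. Nid1 and Nid2, the nidogens that bridge the laminin and collagen networks, had 0 UMIs in every deposited barcode of both libraries, kept or not. A count of 0 allows up to 0.112 CPM in P and 0.148 CPM in D (3 UMIs of the total), and 0 of 6638 and 0 of 4417 cells allow shares of up to 0.0452% and 0.0679% of cells with a UMI. Hspg2, which codes for perlecan, was lower in D, at 9.56 CPM in P (8.42 to 10.8) and 3.50 CPM in D (2.73 to 4.41), a log2 ratio of -1.45 (-1.85 to -1.07). Agrn, which codes for the other large heparan sulphate proteoglycan of the membrane, agrin, was higher in D, at 34.0 (31.8 to 36.2) and 59.7 CPM (56.4 to 63.1), a log2 ratio of 0.81 (0.69 to 0.94).

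**Figure D2:**
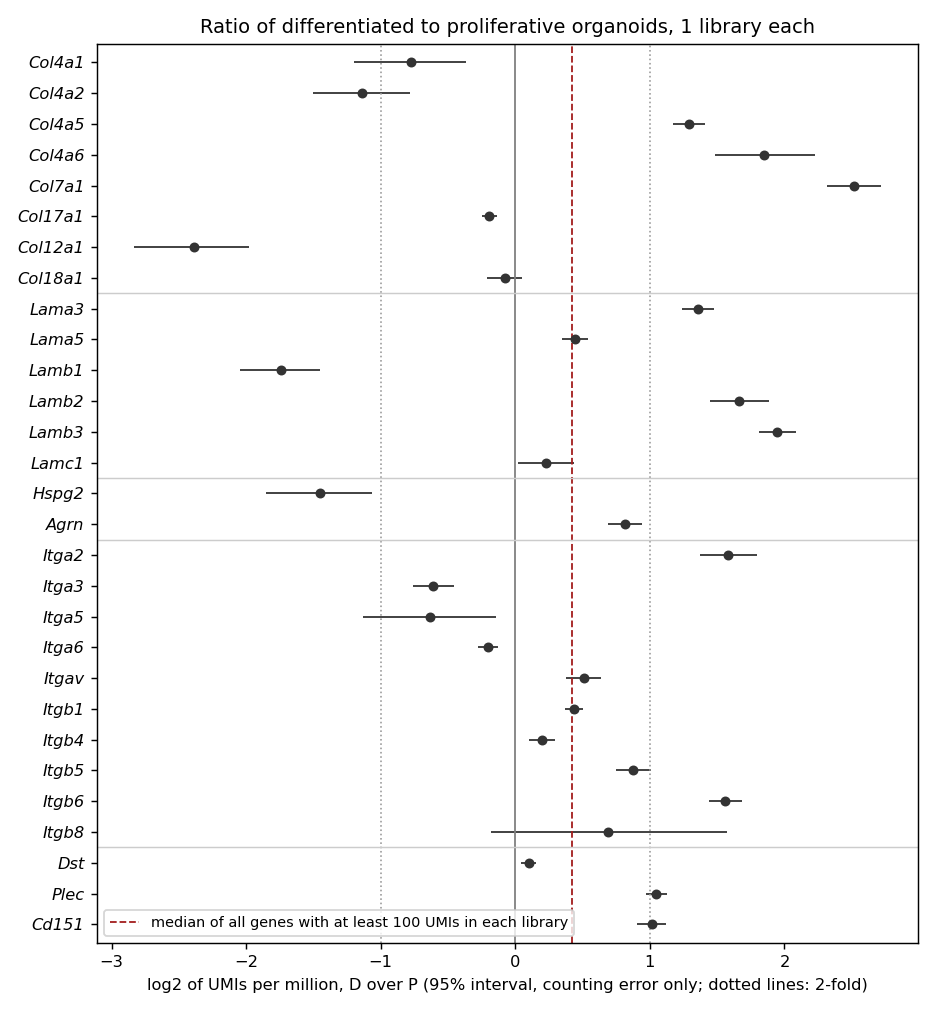
Log2 ratio of CPM in D over P for the 29 genes with at least 20 UMIs, with 95% intervals that cover counting error only. Col7a1 lies farthest to the right at 2.51 and Col12a1 farthest to the left at -2.39, the dotted lines mark 2-fold, and the dashed line marks the median of all genes at 0.42.

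The integrin chains of the hemidesmosome and of the main laminin receptors stayed within 2-fold between the libraries. Itga6, the α6 chain (the surface marker CD49f), had 144 CPM in P (139 to 148) and 125 CPM in D (120.0 to 129.8), a log2 ratio of -0.20 (-0.28 to -0.13) or, relative to the general shift, -0.62. Itgb4, its partner in the hemidesmosome, had 73.4 and 84.3 CPM, and its log2 ratio of 0.20 (0.10 to 0.29) turned to -0.22 relative to the general shift. Itgb1, the β chain shared by the collagen, laminin and fibronectin receptors, had 133 and 180.4 CPM, a log2 ratio of 0.44 that became 0.015 relative to the shift. These 3 chains were the most counted integrins in P and among the 4 most counted in D. Itga3, whose product pairs with β1 as a laminin receptor, went from 40.6 CPM (38.2 to 43.1) to 26.6 CPM (24.4 to 29.0), a log2 ratio of -0.61 (-0.76 to -0.46), which passed 2-fold only relative to the shift (-1.03). Itga5, the fibronectin receptor chain, was low in both, with 108 UMIs in P and 53 in D and a log2 ratio of -0.63 (-1.14 to -0.15).

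Among the integrin chains outside the laminin receptors, Itga2 and Itgb6 were at least 2-fold higher in D. Itga2, the α chain of a collagen receptor, rose from 10.2 CPM in P (9.02 to 11.5) to 30.5 CPM in D (28.2 to 33.0), a log2 ratio of 1.58. Itgb6, an epithelial β chain that pairs with αv and activates latent TGF-β, rose from 28.7 CPM (26.7 to 30.8) to 84.7 CPM (80.7 to 88.8), a log2 ratio of 1.56 (1.44 to 1.69). Both passed 2-fold also relative to the general shift, at 1.16 and 1.14. Itgb5, another partner of αv, went from 30.9 to 56.7 CPM, a log2 ratio of 0.88 (0.75 to 1.01), under 2-fold. Itgav itself had 34.5 and 49.1 CPM, and its log2 ratio of 0.51 became 0.085 relative to the shift. Itgb8, also a partner of αv, was near the limit of detection, with 22 and 27 UMIs and an interval of the log2 ratio from -0.18 to 1.57.

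Of the genes that tie the hemidesmosome to the keratin filaments, Dst (dystonin, BPAG1) had 213 CPM in P and 228 in D, a log2 ratio of 0.10 (0.042 to 0.15) that turned to -0.32 relative to the general shift. Plec (plectin) rose from 77.1 CPM (73.8 to 80.5) to 159 CPM (154 to 165), a log2 ratio of 1.05. Cd151, a tetraspanin that sits beside the laminin-binding integrins, rose from 44.7 to 90.2 CPM, a log2 ratio of 1.01 (0.91 to 1.12). The lower bound of both Plec (0.97) and Cd151 lay under 2-fold, so these calls stood at the threshold. Plec also overlaps Parp10, a protein-coding gene on the same strand, and how reads in the overlap were assigned is not given in the sources used here.

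To see where the transcripts were, the cells of each library were clustered without the 31 genes among the features. P gave clusters 0 to 3, numbered by size, of 2590, 2542, 1339 and 347 cells, led by Ctla2a, Sprr3, Fmo2 and Ccna2. D gave clusters 0 to 3 of 2201, 1296, 741 and 658 cells, led by Reg1, Acta2, Krt1 and Ubd. P cluster 3 had all 12 proliferation markers raised, and D cluster 1 all 11 that were detected in D, where Mki67 was at 4.33 CPM against 25.1 in P. D cluster 3 had all 5 detected luminal markers raised and none of the 6 basal markers. More than 3 of the 6 basal markers (Krt5, Krt14, Krt15, Krt17, Trp63, Cd44) were raised, that is, higher than in the other cells of the library, in P cluster 3 and in D clusters 1 and 2, and in no other cluster. P cluster 0 had Krt14 (4122.1 CPM against 431 in P cluster 1), Krt17 and Trp63 raised but not Krt5, Krt15 and Cd44. A second grouping, chosen after the values had been seen, therefore took the clusters with Krt14, Krt17 and Trp63 all raised, which were P clusters 0 and 3 and D cluster 1. In P cluster 0, Krt5 (3163.1 CPM), Krt15 (1957.7) and Cd44 (86.5) were at their lowest among the P clusters. Krt15 (4181.4 CPM) and Cd44 (72.1) were likewise lowest in D cluster 1 among the D clusters. Under this grouping the words basal side and basal clusters thus rest on Krt14, Krt17 and Trp63 alone. Since the clusters were drawn on the same cells, what follows is a description with no test.

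Under either grouping, 24 of 29 genes in P and 28 of 29 in D had a higher level on the basal side than in the rest, and none was 2-fold lower there. The share of all genes that were higher on the basal side is not given here. Their median log2 ratio was itself above 0 under either grouping, at 0.22 in P and 0.12 in D with more than 3 basal markers raised. With more than 3 basal markers raised, 6 of 29 genes were at least 2-fold higher on the basal side of P (347 cells, background 8.29%) and 18 of 29 on that of D (2037 cells, background 5.12%). With Krt14, Krt17 and Trp63 raised, the counts were 17 of 29 in P (2937 cells, background 8.29%) and 20 of 29 in D (1296 cells, background 6.11%). The median log2 ratio of basal side over rest was then 1.60 in P and 1.82 in D, beside 0.16 and 0.17 over all genes. By class, the collagens had the highest medians, 2.08 in P and 3.45 in D among classes with more than 2 measured genes, followed by the laminins (1.16 and 1.51), the integrins (0.98 and 1.21) and the plakins and tetraspanin (0.97 and 1.02). The backgrounds are over genes with at least 100 UMIs, whereas the counts take in genes from 20 UMIs. Those counted in D under either grouping included Col4a1, Col4a2, Col12a1, Hspg2 and Itgb8, with 27 to 89 UMIs in D. In P, Itgb8 (22 UMIs) was counted with Krt14, Krt17 and Trp63 raised.

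**Figure D3:**
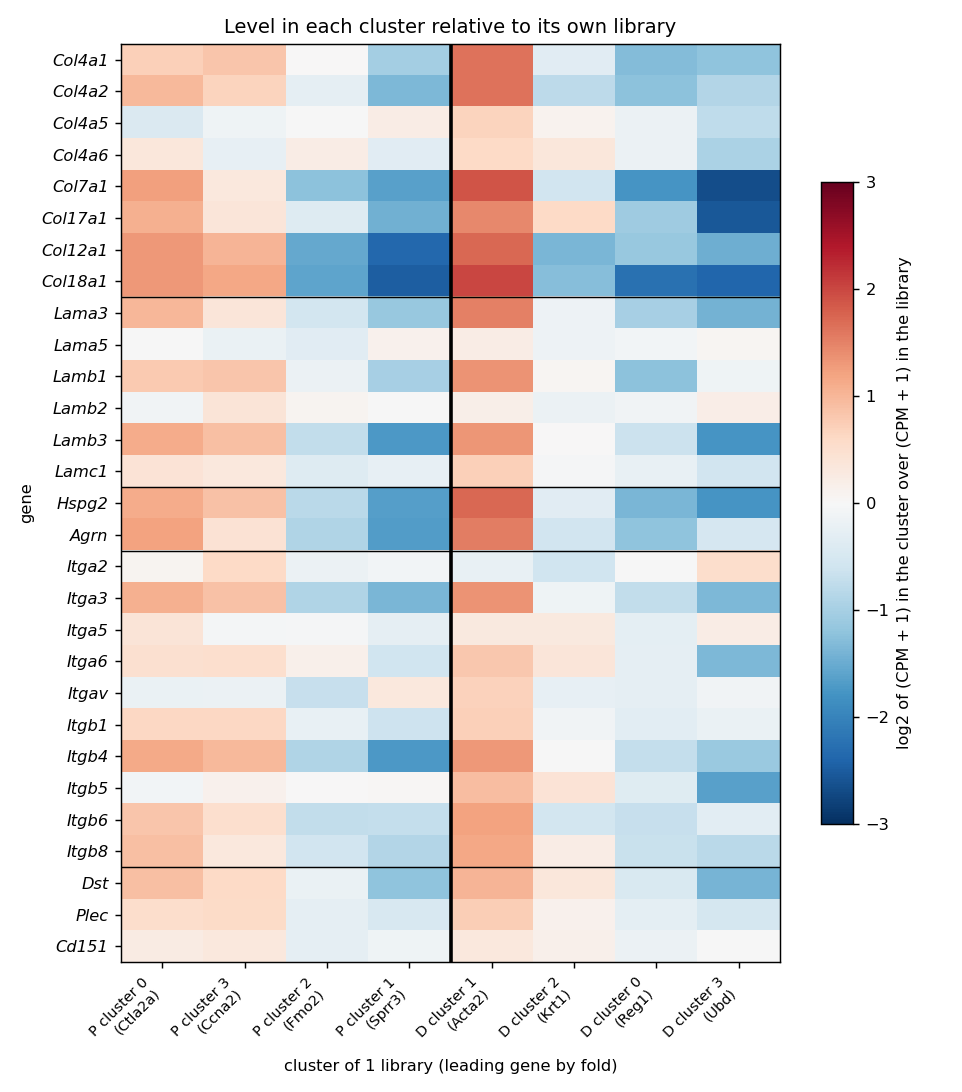
Level of the 29 genes with UMIs in each cluster relative to its own library, as the log2 of (CPM + 1) in the cluster over (CPM + 1) in the library, with the clusters of P (0, 3, 2, 1) on the left of the thick line and those of D (1, 2, 0, 3) on the right. The clusters with Krt14, Krt17 and Trp63 raised (P cluster 0, P cluster 3 and D cluster 1) are red for most genes, Lama5 and Lamb2 are pale throughout, and Col4a5 is pale blue in P cluster 0 and pale red in D cluster 1.

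Of the genes of the hemidesmosome, Col17a1, Itgb4 and Dst were ordered alike over the clusters. Col17a1 had 505 CPM in P cluster 0, 311 in cluster 3, 185 in cluster 2 and 88.8 in cluster 1. In D it had 576 CPM in cluster 1, 318 in cluster 2, 100.2 in cluster 0 and 35.1 in cluster 3, the cluster with uroplakins. Itgb4 had 162, 146, 38.5 and 21.5 CPM in the P clusters taken in the same order, and 208, 83.3, 50.8 and 38.3 CPM in those of D. Col17a1 and Itgb4 thus had the same order of clusters in both libraries, although the margin between P clusters 0 and 3 was small for Itgb4. Itga6 was less steep, from 205 CPM in P cluster 3 to 94.8 in P cluster 1, and from 219 in D cluster 1 to 48.2 in D cluster 3. Dst ran from 402 to 92.0 CPM between P clusters 0 and 1 and from 468 to 86.6 CPM between D clusters 1 and 3. Plec and Cd151 were flatter, and Cd151 in D ranged only from 80.1 to 112 CPM.

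Among the matrix genes, Col18a1 and Col12a1 had the highest ratios of basal side to rest under the grouping by Krt14, Krt17 and Trp63, whereas in D Hspg2 was first with more than 3 basal markers raised. Col18a1 stood at 106 CPM in P cluster 0 and 97.2 in P cluster 3, against 13.7 and 6.89 in clusters 2 and 1. In D it stood at 166 CPM in cluster 1 and at 7.03 to 16.1 in the others. Col18a1, which was within 2-fold between the libraries, thus differed strongly between the clusters of each. Col12a1 had 35.8 and 29.2 CPM in P clusters 0 and 3 and 1.90 in P cluster 1, and 11.0 CPM in D cluster 1 but 0.652 or less in the other D clusters. Col7a1 had 23.7 CPM in P cluster 0 and 202 in D cluster 1, and 2.38 and 7.67 in P cluster 1 and D cluster 3. Lama3 had 241 CPM in D cluster 1 and 75.6 or less in the other D clusters. Lamb3 had 217 CPM there and 87.1 or less elsewhere in D. These laminin chains, both of the hemidesmosome ligand, had their highest level in the cells with the highest Krt14. Agrn had 79.1 CPM in P cluster 0 and 176 in D cluster 1, with log2 ratios of basal side over rest of 2.61 and 2.54. Hspg2 and the α1 and α2 chains of type IV collagen were low throughout but likewise highest in the clusters with Krt14, Krt17 and Trp63 raised, Hspg2 at 21.9 and 2.38 CPM in P clusters 0 and 1 and 13.7 and 0.319 in D clusters 1 and 3. Lamb1 had 33.2 and 34.3 CPM in P clusters 0 and 3, 8.96 in P cluster 1, 15.9 in D cluster 1 and 5.95 or less in the other D clusters, so that D cluster 1 stood at about the level of P cluster 2 (16.8).

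Of the remaining integrin chains, Itgb1 had 206 CPM in P cluster 0, 205 in cluster 3, 115 in cluster 2 and 85.8 in cluster 1, and 298, 167, 145 and 157 CPM in D clusters 1, 2, 0 and 3. Itga3 was steeper, with 85.7 CPM in P cluster 0 against 15.1 in P cluster 1, and 69.9 in D cluster 1 against 9.90 in D cluster 3. Itgb6 had 51.5 and 41.3 CPM in P clusters 0 and 3 and 16.8 in P cluster 2, and in D it had 198 CPM in cluster 1, then 68.4 in the uroplakin cluster 3 and 52.2 in cluster 0. The epithelial β6 chain was therefore not low in the luminal cluster of D, unlike Itga3, Itgb4 and Itga6. Itga5 had between 1.95 and 5.57 CPM in all clusters of both libraries. Itgb8 had 2.41 CPM in P cluster 0 and 4.17 in D cluster 1 and 0 UMIs in P cluster 1.

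Some of the genes had no such gradient. Lama5 stood at 50.5 to 70.3 CPM in the clusters of P and at 77.8 to 102 in those of D. Lamb2 stood at 8.61 to 12.7 CPM in P and 26.3 to 34.2 in D. The α5 and β2 laminin chains thus had a like level in the uroplakin cluster of D (90.4 and 34.2 CPM) and in the Krt14 cluster. Itga2 was highest in D cluster 3, at 44.7 CPM against 26.0 in D cluster 1. Under the grouping by Krt14, Krt17 and Trp63, Col4a5, Itgav and Itgb5 were not higher on the basal side of P. They were higher on that of D, a difference between the libraries that was not tested. With more than 3 basal markers raised, Itgb5 in P had a log2 ratio of 0.13 (-0.30 to 0.54). Col4a5 had 24.1 CPM in P cluster 0 and 38.6 in P cluster 1, but 127 in D cluster 1 and 70.6 in D cluster 0. Its log2 ratio of the Krt14, Krt17 and Trp63 clusters over the rest was -0.56 in P (-0.78 to -0.34) and 0.90 in D (0.74 to 1.05). For Itgav it was -0.31 in P (-0.52 to -0.11) and 0.94 in D (0.74 to 1.13). For Itgb5 it was -0.073 in P (-0.29 to 0.14) and 1.31 in D (1.14 to 1.49).

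The libraries were then compared within groups of cells that share the state of Krt14, Krt17 and Trp63, without being alike in other ways. P cluster 0 (2590 cells) was set beside D cluster 1 (1296 cells), and the cells outside the Krt14, Krt17 and Trp63 clusters of P (3881 cells) beside those of D (3600 cells). The cycling cluster was left out of P only, whereas D cluster 1 had proliferation markers raised and was led by Acta2. The cells outside were those of the Sprr3 and Fmo2 clusters in P and of the Reg1, Krt1 and Ubd clusters in D, and the Krt1 cluster (D cluster 2) had 5 of the 6 basal markers raised. In the first comparison 13 of 29 genes were at least 2-fold higher in D (background 16.5%) and 2 in P (background 3.50%). In the second, 11 of 28 were at least 2-fold higher in D (background 14.8%) and 5 in P (background 3.36%). The median of all genes lay at 0.52 and 0.43 in the 2 comparisons, and that of the measured genes of the list at 0.69 and 0.50.

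Under this grouping Col4a1 and Col4a2 were at least 2-fold lower in D in the cells outside and not in the comparison of P cluster 0 with D cluster 1. Col4a1 had 10.5 CPM in P cluster 0 and 13.0 in D cluster 1, a log2 ratio of 0.31 with an interval of -0.22 to 0.82. In the cells outside, it had 3.43 and 1.11 CPM, a log2 ratio of -1.63 (-2.48 to -0.85). Col4a2 had log2 ratios of -0.33 (-0.78 to 0.10) and -1.52 (-2.23 to -0.85) in the same groups. With D cluster 2 left out of the cells outside, an alternative added after the data had been seen, these 2 ratios became -1.99 (-3.02 to -1.08) for Col4a1 and -1.61 (-2.40 to -0.89) for Col4a2. Between P cluster 0 and D cluster 1, the interval of Col4a2 lay wholly below the median of all genes (0.52), and that of Col4a1 took it in. Hspg2 likewise passed 2-fold only outside, with log2 ratios of -0.67 (-1.14 to -0.23) and -1.74 (-2.67 to -0.89). Lamb1 and Col12a1, in contrast, were at least 2-fold lower in D in both. Lamb1 had log2 ratios of -1.06 (-1.47 to -0.66) and -1.84 (-2.32 to -1.38). Col12a1 had -1.70 in the basal clusters and -2.17 (-3.39 to -1.11) outside. The differences between the 2 cell groups were not tested.

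In both groups of cells, 10 genes were at least 2-fold higher in D, namely Col4a6, Col7a1, Lama3, Lamb2, Lamb3, Agrn, Itga2, Itgb6, Plec and Cd151. These calls, like the others in this paragraph, are not relative to the median of all genes. Of all genes, 16.5% were called higher in D in the basal clusters and 14.8% outside. The share of all genes called in both groups is not given here. Against medians of 0.52 and 0.43, Agrn (1.16 and 1.33), Plec (1.25 and 1.20) and Cd151 (1.07 and 1.09) fell under 2-fold in both groups. Itga2 (1.25) did so in the basal clusters. Col7a1 had a log2 ratio of 3.09 (2.86 to 3.33) in the basal clusters, from 23.7 to 202 CPM, and of 2.65 outside, from 2.67 to 16.8 CPM. Col4a5, Itgav and Itgb5 passed 2-fold only in the basal clusters. Col4a5 had log2 ratios of 2.40 (2.16 to 2.65) there and 0.89 (0.74 to 1.03) outside. Itgav had 1.42 (1.17 to 1.66) and 0.16 (0.0015 to 0.32). Itgb4 was the reverse, at 0.36 (0.23 to 0.49) in the basal clusters and 1.03 (0.86 to 1.20) outside, from 26.0 to 53.1 CPM, and at 0.88, under 2-fold, with D cluster 2 left out. Itga6 and Col17a1 had log2 ratios of at most 0.19 in either group, below the median of all genes.

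**Figure D4:**
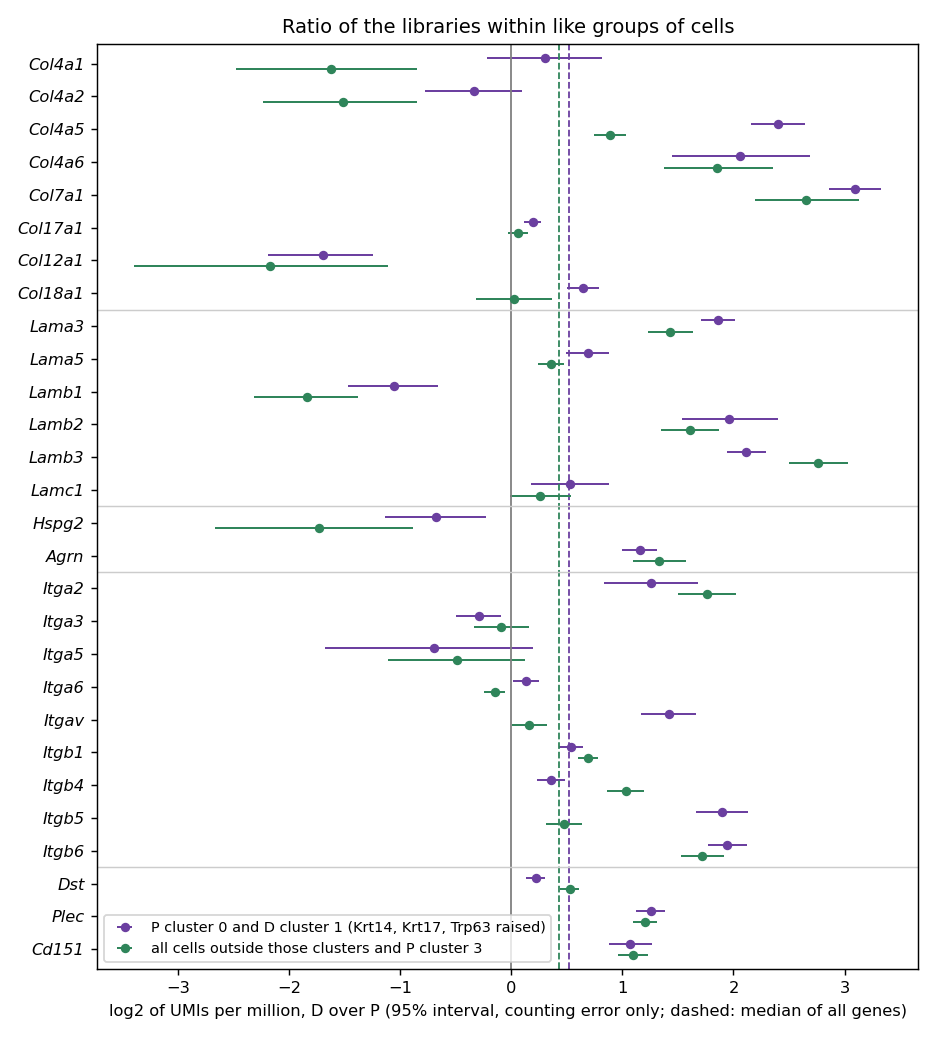
Log2 ratio of CPM in D over P within the Krt14, Krt17 and Trp63 clusters without the cycling cluster (violet) and within the cells outside these clusters (green), with 95% intervals of counting error and, as dashed lines, the median of all genes in each comparison. Col4a1 and Col4a2 lie near 0 in violet and at -1.63 and -1.52 in green, and Itgb8, with 1 UMI outside the basal clusters of P, is left out.

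Detection in single cells was compared after each cell had been thinned to 2100 UMIs, since the clusters differed in depth. The median was 2838.5 UMIs in P cluster 0 and 4238.5 in P cluster 1, and 2678.5 in D cluster 1 and 4061 in D cluster 3. Over whole libraries at this depth, Col7a1 was detected in 2.06% of P and 9.19% of D cells (3.51% and 15.7% without thinning), and Lamb3 in 5.02% and 16.1% (7.73% and 26.0% without thinning). Col17a1 was detected in 36.8% and 31.2% (49.8% and 44.2%). The first of these genes were thus found in more cells of D, and the last in fewer. At this depth a cell held on average 3.89 of the 31 genes in P cluster 0, 3.48 in cluster 3, 1.98 in cluster 2 and 1.44 in cluster 1. In D it held 6.24 in cluster 1, 3.44 in cluster 2, 2.29 in cluster 0 and 2.02 in cluster 3. D cluster 1 thus had the most of these genes detected per cell, and the uroplakin cluster 3 of D had about as many as P cluster 2. Col17a1 was detected in 68.1% (65.1 to 70.9, exact binomial) of the cells of D cluster 1 and in 5.77% (4.10 to 7.87) of those of D cluster 3, the luminal group. For Col7a1 the shares in these clusters were 31.1% and 1.25%, and for Lamb3 34.8% and 6.40%. In P the shares in clusters 0 and 1 were 61.5% and 14.7% for Col17a1, 4.71% and 0.356% for Col7a1, and 10.3% and 0.832% for Lamb3. The part of free RNA in the droplets, which weighs more in shallow cells, was not tested. Both chains of integrin α6β4 were detected together in 9.26% of the cells of P cluster 0 and 11.1% of P cluster 3, against 0.673% of P cluster 1. In D the shares were 14.1% in cluster 1 and 0.468% in cluster 3. Intervals and limits cover counting error only.

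The rest of the pathway was read from lists of genes that do not overlap with the 31. Of the other basement membrane genes, 8 of the 12 with at least 20 UMIs lay 2-fold or more above P in D and 2 in P, beside 13.4% and 4.73% of all genes, and relative to the general shift 6 and 2 did, beside 5.62% and 8.62%. The same shares of all genes, taken over genes with at least 100 UMIs, apply to the lists that follow. Npnt (nephronectin, an integrin ligand) rose from 1.69 to 63.5 CPM, Fn1 (fibronectin) from 0.900 to 22.9, and Fras1, a protein of the sublamina, from 3.22 to 20.6. Fbln1 (fibulin) fell from 9.07 to 0.295 CPM. Of the further integrin chains, only 2 of 15 had at least 20 UMIs and neither was 2-fold apart. Itga8, the receptor chain for nephronectin, had 1 UMI in P and 0 in D. Of the genes that modify and cross-link collagen, 4 of 16 were 2-fold higher in D and 5 in P. Relative to the general shift the counts were 2 and 5. The prolyl hydroxylases P4ha1 and P4ha2 fell, with log2 ratios of -2.24 (-2.45 to -2.03) and -1.52 (-1.71 to -1.33), whereas the glycosyltransferase Colgalt1 (1.45) and the collagen-binding protein Sparc (3.23) rose.

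Of the proteases and their inhibitors, 6 of 15 lay 2-fold or more above P in D and 1 in P. Relative to the general shift the counts were 6 and 2. The metalloprotease inhibitor Timp3 went from 4 UMIs in P to 902 in D, with 183 CPM in D cluster 1 against 9.49 in the other D cells. Timp2 rose with it, with a log2 ratio of 1.84, as did the protease Mmp7 (2.66) and the urokinase receptor Plaur (3.04). Of the adaptors that join integrins to actin, 7 of 21 were 2-fold higher in D and 0 in P, and relative to the general shift 4 and 2 were, the latter Tns4 (-1.19) and Kank1 (-1.13). Tns1 (tensin), Flna (filamin), Fermt2 (kindlin) and Actn1 (actinin) had log2 ratios of 3.37, 1.75, 1.69 and 1.59. Flna had 339 CPM in D cluster 1 and 76.1 in the other cells of D. Of the other adhesion receptors and tetraspanins, 4 of 11 were 2-fold higher in D and 1 in P, and relative to the general shift 1 and 1 were. Dag1 (dystroglycan, a laminin receptor) stood at 101 and 237 CPM, a log2 ratio of 1.23 that became 0.80 relative to the shift. Tspan8 and Ddr1 had log2 ratios of 1.45 and 1.36 (1.02 and 0.94 relative to the shift), and Tspan4 was lower in D (-2.14).

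Markers of stromal, vascular and blood cells were read in the same clusters. Of the 9 fibroblast markers 1 had at least 20 UMIs. This was Dcn, which went from 40 to 1234 UMIs, and the list summed to 233 CPM in D cluster 1 against 19.97 in the other D cells and 2.02 in P, but Col1a2 and Thy1 had 0 UMIs in both libraries and Col1a1 and Col3a1 had 10 and 19 in D. Of the 8 smooth muscle markers, 3 had at least 20 UMIs. Acta2 rose from 28 to 837 UMIs, whereas Smtn fell from 891 to 244. The list summed to 35.2 CPM in P and 55.3 in D, with 57.4 CPM in P clusters 0 and 3, 222 in D cluster 1 and 13.4 in the other D cells, but Myh11 and Des had 1 UMI each in P and 0 in D. The endothelial list (7 genes) summed to 5.51 CPM in P and 3.45 in D, with Cdh5, Kdr and Emcn at 0 UMIs. The leukocyte list (8 genes) summed to 1.20 and 20.7 CPM, with Cd3e at 0 UMIs, and Laptm5 had 7 UMIs in P and 400 in D. Early-response genes such as Fos and Atf3, which rise when cells are dissociated, summed to 1585 CPM in P and 3147.4 in D, and to 2583.2 CPM in D cluster 1 and 4420.4 in D cluster 2. The part of dissociation and of mitochondrial content, whose median was 4.98% in cluster 0 of P and 5.51% in cluster 1 of D, in the differences between the libraries was not tested.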

How the data were processed

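Droplet scRNA-Seq libraries (10x 3′ chemistry) of P and D organoids were analysed from the deposited matrices of UMI counts, 1 library per group. The submitters' processing notes name bcl2fastq 2.19.0 and Cell Ranger 3.0.2, and the genome build was GRCm38 (mm10). The authors deposited the counts as raw UMI counts per gene and barcode, so depth stayed in the values. Cells with more than 800 genes and at most 12% mitochondrial UMIs were kept (6818 in P and 4896 in D; admitting cells with exactly 800 genes would give 6826 and 4896). Median depth was 3405.5 UMIs in P and 3227.5 in D.

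Sums of UMIs over kept cells or over a cluster were divided by the total of the same cells and given per 1000000 UMIs (CPM). Intervals of levels are exact Poisson, those of ratios exact conditional binomial and those of shares exact binomial, all at 95%, and they cover counting error only. With 1 library per group no test was made, and a 2-fold difference stands in for a call, for genes whose UMIs came to 20 or more in P and D together. The background in percent is over genes with at least 100 UMIs. For calls, 0.5 UMIs were added on both sides of a ratio.

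Cells were clustered in each library with Seurat 5.3.0 in R 4.3.3 (2000 variable features without the 31 genes, 25 components in P and 21 in D, Louvain resolution 0.2). Other steps used Python 3.11.15, NumPy 2.4.6, SciPy 1.17.1, pandas 2.3.3, scanpy 1.11.5, Matrix 1.6.5 and matplotlib 3.10.9. For detection, cells were thinned to 2100 UMIs, which left out 180 cells of P and 479 of D. Scrublet (through scanpy) called 0 doublets in either library at its own threshold, so no cell was removed as a doublet, and an alternative without the top 6% of scores (409 and 294 cells) was added after the data had been seen, as was the grouping by Krt14, Krt17 and Trp63. The script was tested on simulated data. All 31 genes were named, and of each further list the 4 genes with the largest absolute log2 ratio among those with at least 100 UMIs, with Itga8 and marker genes added for their role. The genes and lists were chosen with earlier results of these data known. Alternatives were other scalings, filters, minimums and cluster resolutions, the genes kept among the clustering features, a mean over cells, and no thinning.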

Additional observations from a re-analysis of the deposited data

Results flagged for a closer look

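Col4a5 and Itgav stood out because their contrast of the clusters with Krt14, Krt17 and Trp63 raised over the rest of the library had opposite signs in P and D. For Col4a5 the log2 ratio was -0.56 in P and 0.90 in D, and for Itgav it was -0.31 in P and 0.94 in D. The difference between the libraries was not tested, since each group held 1 library, and the grouping of clusters was chosen after the data had been seen.

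The barcodes that the filter left out also held transcripts of these genes. In P the 1376 left-out barcodes had 4586 UMIs of the 31 genes, or 2047.1 CPM against 1400.9 CPM in the kept cells. In D the 2079 left-out barcodes had 10241 UMIs, or 3872.8 CPM against 1900.6 CPM. What kind of cells these barcodes held was not tested.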

How the results depend on the processing

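The counts and the median of the list moved with the scaling, which shifts all genes alike. The report had 10 genes 2-fold or more above P in D, 4 the other way and a median log2 ratio of 0.44. Scaled by the median ratio of all genes, these values were 6, 7 and 0.022. They were 7, 5 and 0.11 without mitochondrial and ribosomal protein genes. These genes took 43.4% of the kept UMIs of P and 28.6% of those of D. Lamc1, Itgb4 and Dst changed sign under both of these scalings. A mean over cells, looser and stricter filters, no minimum of UMIs and the removal of the highest Scrublet scores left 9 or 10 genes higher in D and 3 or 4 in P. The looser and stricter filters, though, moved Col18a1 from -0.080 to 0.015 and 0.078. Scaling by the median ratio took the share of all genes called from 13.4% to 5.62% in D. In P it took that share from 4.73% to 8.62%. For the other alternatives of this paragraph the share is not given, and whether the counts moved with it was not tested.

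The basal side of P depended on how it was drawn, since with more than 3 of the basal markers raised it was the cycling cluster of 347 cells alone (6 genes, median 0.57). It gave 16 genes and a median of 1.16 at resolution 0.4 under either grouping, 17 and 1.60 with Krt14, Krt17 and Trp63 raised, 18 and 1.70 under the same grouping without the highest Scrublet scores, 18 and 1.53 between the cells with the highest and the lowest basal marker level, split into 3 equal bins, and 3 genes without mitochondrial and ribosomal protein genes. In D the count stayed between 17 and 21 (18 in the report), and the median of 1.45 moved to 1.82 with Krt14, Krt17 and Trp63 raised, to 1.83 under that grouping at resolution 0.4, to 1.84 with the 31 genes among the features and to 1.83 without the highest Scrublet scores under either grouping. Without thinning, the median share of cells with a UMI was 10.1% in P and 15.7% in D, against 6.00% and 9.03%. No value changed sign past a call. Outside the basal clusters of both groupings (P clusters 1 and 2, D clusters 0 and 3), 10 genes were 2-fold higher in D and 5 in P, against 11 and 5 in the report. For the alternatives in this paragraph that the Results do not hold, the share of all genes called is not given. Whether these counts moved with that share was not tested. The automatic doublet threshold gave no alternative, as it called 0 cells.

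With 1 library per group, batch, dissociation and medium cannot be told apart, and there was no replicate to leave out. No paired analysis was possible because each group held 1 library. For Itgb8, with 22 and 27 UMIs, no difference between the libraries was detectable at this depth. Lamb3, Col18a1 and Nid2 overlap protein-coding genes on the other strand and Plec overlaps one on its own strand, and whether the counting used strand is not given in the sources used here.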
